A study of Bos taurus with 16 samples.

Results

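WIF1 (ENSBTAG00000014758) and NDP (ENSBTAG00000012623) encode secreted regulators of Wnt signaling, and they are 2 of the 19454 bovine genes counted in 16 RNA-Seq libraries of cultured chondrocytes. Both were chosen from measured values of these same libraries: WIF1 is named by the study for its expression after knockdown, and both genes were taken up with their changes across shRNA and TGFβ2 already known. Which of the values selected NDP is not given in the sources used here. Their values are therefore described without a test in every comparison.

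Superficial zone articular chondrocytes, the cells at the gliding surface of cartilage, came from the knees of 4 calves 1 to 2 weeks old and were infected with lentivirus for an shRNA directed at Creb5 (shCreb5) or for a scrambled one (shScramble). After 5 days in 0.8 µg/ml puromycin the cells were kept for 48 hours on low attachment plates, with 100 ng/ml TGFα alone (condition A) or with the same TGFα plus 20 ng/ml TGFβ2 (condition AB). A group held 1 library from each calf, so that every comparison was made within calves. Infection in 7.5 µg/ml DEAE-dextran, puromycin, 10% serum and TGFα were common to all groups, and no uninfected culture and no culture without TGFα is compared here.

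Wnt proteins are secreted ligands that bind Frizzled receptors together with co-receptors of the LRP or ROR families, and in the canonical branch they lead to transcription through β-catenin and TCF factors. WIF1 binds Wnt proteins outside the cell and keeps them from their receptors, as the SFRP proteins do. NDP encodes norrin, a ligand that is not a Wnt by sequence but signals through FZD4 with LRP5 and TSPAN12 and is best known from retinal blood vessels, while in cartilage the level of Wnt activity bears on joint formation and on the state of articular chondrocytes.

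The target of the shRNA, CREB5 (ENSBTAG00000018909), comes first. In condition A, CREB5 stood at 124, 71.4, 77.8 and 105 CPM (counts scaled to library size) in the shScramble libraries of calves 1, 2, 3 and 4, and at 86.1, 44.7, 57.7 and 72.6 CPM in their shCreb5 libraries. In condition AB it stood at 83.0, 59.0, 62.7 and 78.7 CPM with shScramble and at 43.0, 36.2, 31.1 and 34.9 CPM with shCreb5. The shCreb5 library was the lower of the pair in 4 of 4 calves in both conditions, and only in condition AB did the groups not overlap. Between 62.6% and 74.2% of the shScramble level was left in condition A, and between 44.4% and 61.4% in condition AB. The fitted changes were -0.54 log2 (standard error 0.08, edgeR adjusted p = 0.337) and -0.96 log2 (standard error 0.10, edgeR adjusted p = 0.124), so edgeR called neither, while DESeq2 called both (adjusted p = 6.98e-05 and 1.02e-08). In condition AB edgeR itself called CREB5 with all 16 libraries in 1 fit (adjusted p = 0.00561) and with no filter on low counts (adjusted p = 0.0181).

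The knockdown comparisons called no gene with edgeR, and the TGFβ2 comparisons called many. With shCreb5, 0 of 12922 genes (0%) were called in condition A and 0 of 12664 (0%) in condition AB, where 1144 and 1078 genes had an unadjusted p under 0.05 and DESeq2 called 79 and 55. With TGFβ2, edgeR called 2556 of 12879 genes (19.8%) in shScramble cells, of which 1378 rose (10.7%) and 1178 fell (9.15%). In shCreb5 cells 3884 of 12769 genes (30.4%) were called, 2027 rising (15.9%) and 1857 falling (14.5%). The difference of the shCreb5 effect between conditions called 0 of 13372 genes (0%), with 571 genes under 0.05 before adjustment and 10 called by DESeq2. PRG4 (ENSBTAG00000011932), the lubricant gene of this zone, rose with TGFβ2 by 1.94 log2 in shScramble cells (edgeR adjusted p = 0.00113, higher in 4 of 4 calves), though DESeq2 did not call it (adjusted p = 0.0862). In shCreb5 cells PRG4 rose by 1.91 log2 in 4 of 4 calves, called by edgeR (adjusted p = 0.00126) and by DESeq2 (adjusted p = 5.74e-19).

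WIF1 was counted in every library. In condition A its CPM in calves 1 to 4 was 73.0, 58.0, 38.1 and 32.3 with shScramble (mean 50.3, SD 18.7) and 37.2, 38.7, 2.49 and 8.58 with shCreb5 (mean 21.7, SD 18.9). The shCreb5 library was the lower in each calf, the ranges overlapped, and calf 3 with shCreb5 was the lowest of all 16 libraries with 46 counts (exact Poisson 95% interval 33.7 to 61.4, which covers counting error only). In condition AB its CPM was 269, 194, 182 and 241 with shScramble (mean 221, SD 40.9) and 208.5, 126, 58.3 and 157 with shCreb5 (mean 137, SD 62.8). Again the shCreb5 library was the lower in each calf and the ranges overlapped, by calf 1. All AB libraries lay above all A libraries of the same shRNA: the lowest AB value was 182 CPM against a highest A value of 73.0 CPM with shScramble, and 58.3 against 38.7 CPM with shCreb5. The shCreb5 A group was the most uneven, with a highest value 15.5 times the lowest, against 1.48 times in the shScramble AB group.

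NDP ran the other way with TGFβ2. In condition A its CPM in calves 1 to 4 was 36.9, 1.92, 11.8 and 17.1 with shScramble (mean 16.9, SD 14.7) and 29.7, 2.12, 21.6 and 36.04 with shCreb5 (mean 22.4, SD 14.7). These ranges overlapped almost wholly, calf 1 was lower with shCreb5 and the other 3 calves were higher. In condition AB its CPM was 3.41, 0.261, 1.49 and 1.88 with shScramble (mean 1.76, SD 1.30) and 4.86, 0.216, 1.47 and 4.36 with shCreb5 (mean 2.73, SD 2.24). Calves 1 and 4 were higher with shCreb5 and calves 2 and 3 lower, and for calves 1, 2 and 3 the counting intervals of the pair overlapped. Calf 2 was the lowest calf in all 4 groups, down to 5 counts (1.62 to 11.7) and 4 counts (1.09 to 10.2) in condition AB, so that its values in condition AB rest on very few reads.

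**Figure D1:**
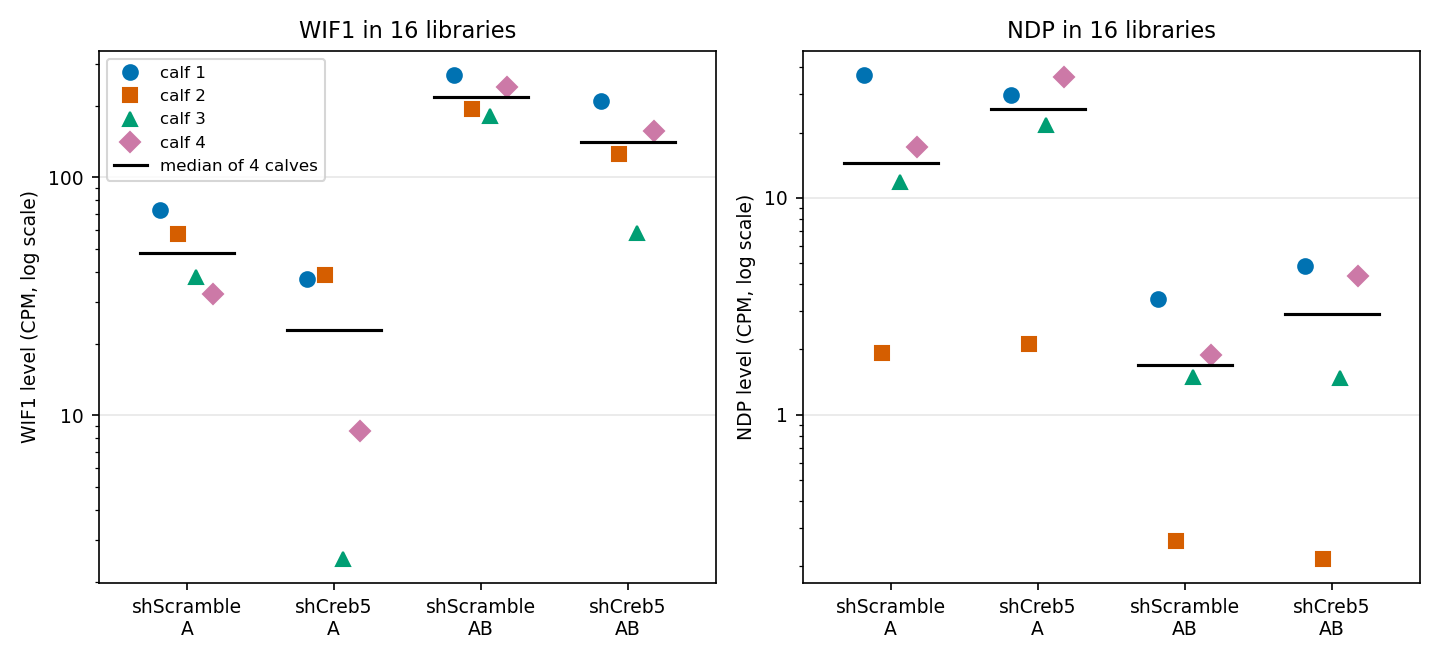
CPM of WIF1 and NDP (log axis) in the 16 libraries, by group, with each calf as its own mark. WIF1 sits higher and NDP lower in both groups with TGFβ2, and calf 2 is the low calf of NDP throughout.

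With TGFβ2, WIF1 was higher in every calf. In shScramble cells the AB level was 3.69, 3.34, 4.78 and 7.45 times the A level in calves 1 to 4, a fitted change of 2.19 log2 (standard error 0.19). In shCreb5 cells it was 5.60, 3.25, 23.4 and 18.3 times the A level, a fitted change of 3.08 log2 (standard error 0.45). The 23.4 of calf 3 starts from the 46 counts given above. By size the change of WIF1 was number 97 from the highest of 12879 genes in shScramble cells and number 29 of 12769 in shCreb5 cells, which are positions of a gene chosen by its values. Leaving out 1 calf at a time gave 1.96 to 2.35 log2 in shScramble cells and 2.68 to 3.59 log2 in shCreb5 cells.

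NDP was lower with TGFβ2 in every calf. Of its A level, 9.24%, 13.5%, 12.7% and 10.99% was left in calves 1 to 4 with shScramble, a fitted change of -3.19 log2 (standard error 0.16). With shCreb5, 16.3%, 10.2%, 6.80% and 12.1% was left, a fitted change of -3.10 log2 (standard error 0.21). The A and AB ranges touched only through calf 2, whose A level was below the AB level of 1 or 2 other calves. The 2 changes were number 12 and number 13 from the lowest of all genes tested, again as positions of a chosen gene. With 1 calf left out the change stayed between -3.27 and -3.05 log2 with shScramble and between -3.37 and -2.87 log2 with shCreb5.

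The ratio of WIF1 to NDP counts within a library does not depend on library size or scaling. From A to AB it was higher by 5.32, 4.62, 5.23 and 6.08 log2 in shScramble cells (mean 5.32) and by 4.99 to 8.43 log2 in shCreb5 cells (mean 6.44). From shScramble to shCreb5 it changed by -4.81 to -0.66 log2 in condition A (mean -2.30) and by -1.84 to -0.35 log2 in condition AB (mean -1.17). Each of the 4 shifts had the same sign in 4 of 4 calves.

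**Figure D2:**
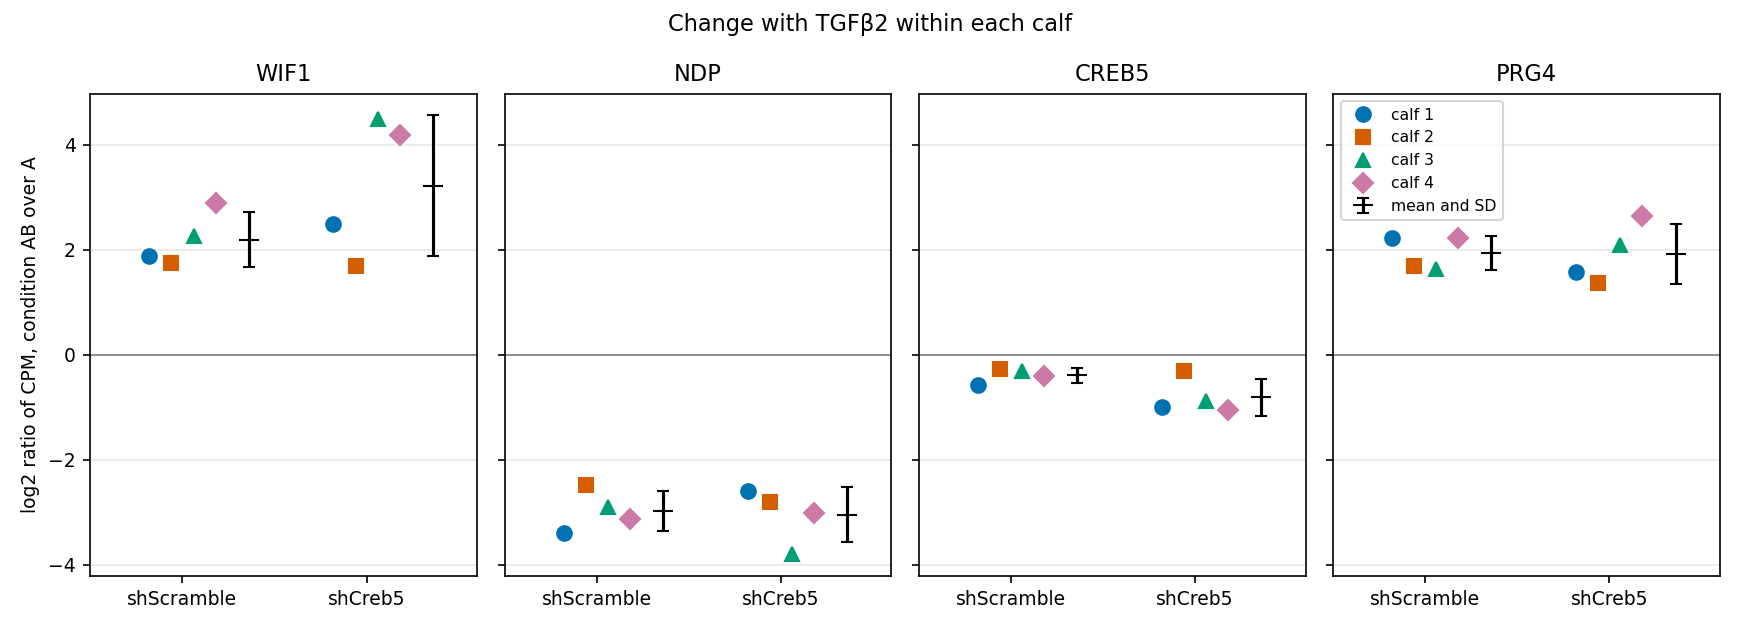
Log2 ratio of condition AB over condition A for WIF1 and NDP in each calf, for shScramble and shCreb5 cells. All WIF1 ratios are above 0 and all NDP ratios are below 0.

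With shCreb5, WIF1 was at 51.0%, 66.6%, 6.53% and 26.6% of its shScramble level in calves 1 to 4 in condition A. The fitted change was -1.68 log2 (standard error 0.48), number 12 from the lowest of 12922 genes, and it was -1.13 log2 without calf 3 and -2.13 log2 without calf 2. In condition AB it was at 77.4%, 64.9%, 32.1% and 65.1%. There the fitted change was -0.81 log2 (standard error 0.21), number 164 from the lowest of 12664 genes, and without calf 3 it came to -0.53 log2. Calf 3 thus had the largest drop in both conditions, and the direction did not depend on it. In condition A the chondrocyte markers were lower with shCreb5 in calves 3 and 4, the calves with the larger drops of WIF1, and higher in calves 1 and 2. HAPLN1 was at 1003 CPM against 2252 with shScramble in calf 3 and at 1431 against 2650 in calf 4, and COL11A1 at 898 against 1734 and at 1886 against 4063. Of the markers of other cell types, THY1, CD68 and VWF were higher with shCreb5 and TEK was lower in all 4 calves, while COL3A1 and CD14 were each higher in 2 calves and lower in 2. CD68 went from 3.77 to 4.28, 3.56 to 4.42, 24.3 to 71.7 and 7.85 to 16.5 CPM in calves 1 to 4, and THY1 from 78.0 to 125, 23.8 to 28.7, 40.9 to 116 and 71.7 to 252 CPM. VWF went from 9.96 to 10.4, 6.54 to 11.48, 9.596 to 19.5 and 4.15 to 8.31 CPM, so that the shCreb5 A library of calf 3, lowest in WIF1, was the highest of all 16 for CD68 and VWF. In condition AB, THY1 went from 220 to 263, 58.4 to 47.2, 141 to 316 and 158 to 533 CPM in calves 1 to 4. CD68 went there from 1.32 to 1.13, 2.87 to 3.29, 15.3 to 15.2 and 3.29 to 3.32 CPM. The part of these markers in the result was not tested.

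NDP with shCreb5 was at 80.6%, 110%, 183% and 211% of its shScramble level in condition A, and at 143%, 82.9%, 98.2% and 232% in condition AB. The fitted changes were 0.47 log2 (standard error 0.24) and 0.52 log2 (standard error 0.28), with 3 and 2 of 4 calves higher. Calf 4 carried much of both: without it they came to 0.22 and 0.22 log2, while the condition A value was 0.79 log2 without calf 1. In condition A the NDP level with shCreb5 was highest relative to shScramble in calves 3 and 4. In these calves CD68 and THY1 were most raised and HAPLN1 and COL11A1 were lower with shCreb5, as given above for WIF1. In condition AB, THY1 in calf 4 was at 533 CPM with shCreb5 against 158 CPM with shScramble. The part of these markers in the result was not tested either. The direction of NDP was therefore not the same in all calves in either condition, in contrast to that of WIF1.

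The difference of the shCreb5 effect between conditions was 0.65 log2 for WIF1 (standard error 0.63), from per calf values of 0.60, -0.04, 2.24 and 1.28. It was 1.08 log2 without calf 2 and 0.44 log2 without calf 4. For NDP it was 0.09 log2 (standard error 0.35), from 0.81, -0.32, -0.89 and 0.10, and it changed sign to -0.18 log2 without calf 1, with 0.41 log2 without calf 3, 0.07 log2 without calf 2 and 0.01 log2 without calf 4. The TGFβ2 and shCreb5 comparisons share libraries, since each group serves in 1 comparison of each kind, so their values are not independent of each other.

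**Figure D3:**
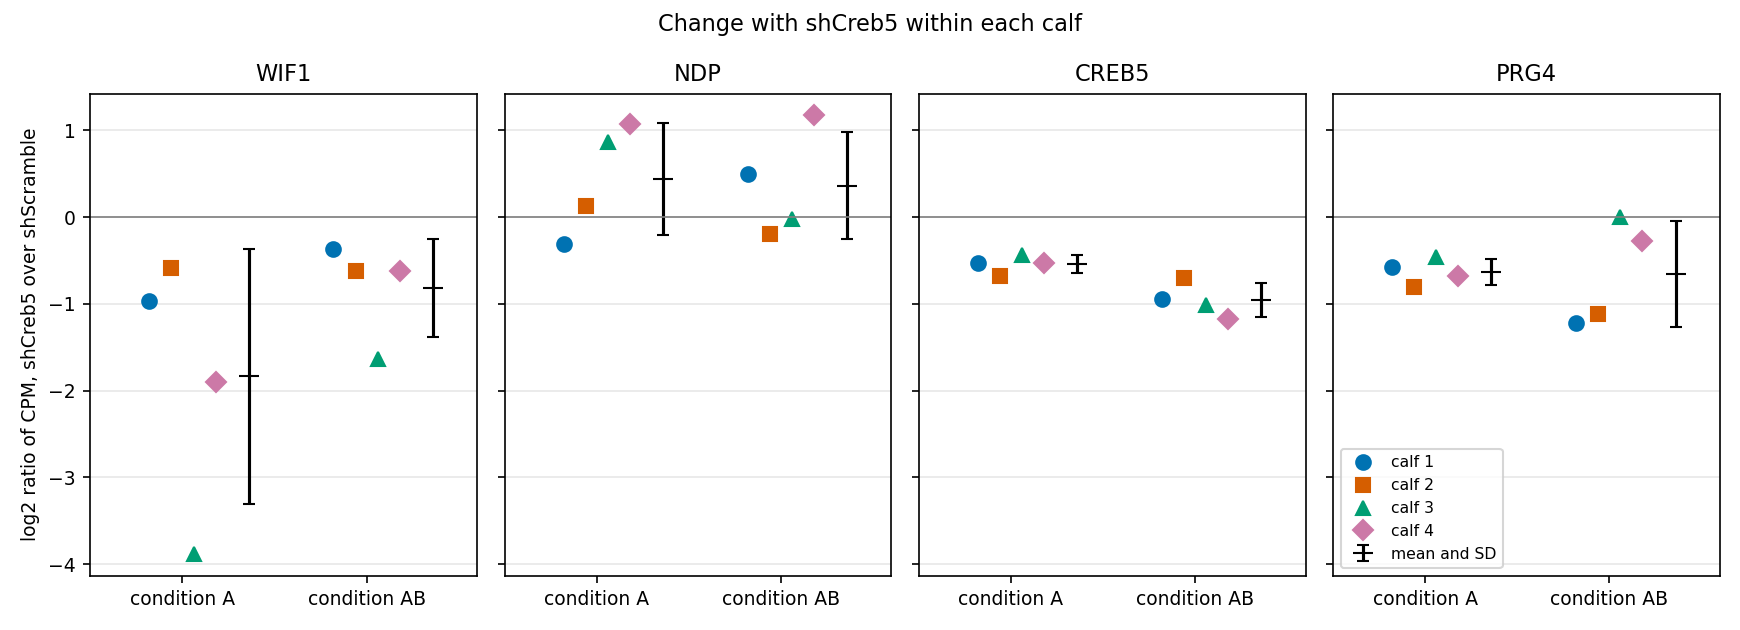
Log2 ratio of shCreb5 over shScramble for CREB5, WIF1 and NDP in each calf, in conditions A and AB. CREB5 and WIF1 are below 0 in every calf and NDP lies on both sides of 0.

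Calves differed much more in NDP than in most genes. The SD of its calf effects, after groups were allowed for, was 1.69 log2, number 135 of 13372 genes, against a median of 0.27 log2 over all genes. The effects were 1.37, -2.43, 0.14 and 0.92 log2 in calves 1 to 4. For WIF1 the SD was 0.78 log2 (number 1324), with effects of 0.78, 0.41, -1.01 and -0.18 log2. Calf 2 was also the lowest calf for PRG4 (-1.49 log2). For CREB5 it was the lowest by little (-0.28 log2, with calf 3 at -0.19 log2), and for WIF1 it was not the lowest. Its low place was thus shared clearly by PRG4 alone of these genes.

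Among 3267 genes with a symbol, those whose profile over the 16 libraries, set to each calf's mean, lay nearest to WIF1 were CCL2, RRM2 and KIF15 (root mean square distance 0.57, 0.62 and 0.65 log2). Nearest to NDP were AOX1, TRIM63 and AQP5 (0.43, 0.50 and 0.50 log2), while WIF1 and NDP lay 3.102 log2 apart. They were picked for their likeness and are described without a test: with TGFβ2 in shScramble cells CCL2, RRM2 and KIF15 were higher by 3.27, 2.06 and 2.01 log2. AOX1, TRIM63 and AQP5 changed by -2.80, -1.96 and -2.70 log2.

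**Figure D4:**
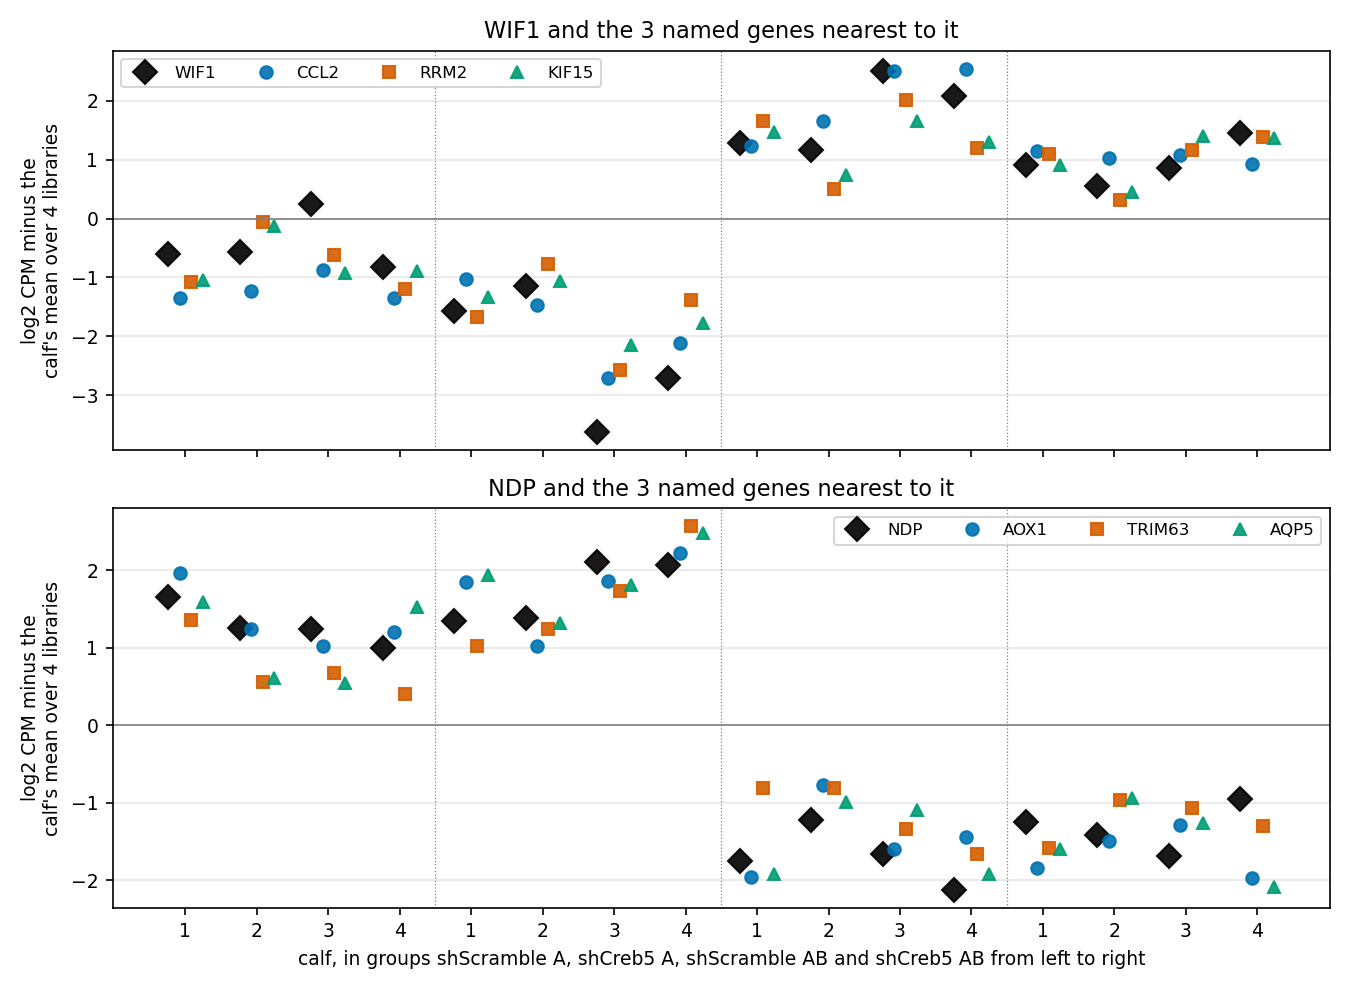
Log2 CPM minus the mean of each calf for WIF1 and for NDP with the 3 named genes nearest to each, over 16 libraries in 4 groups. The nearest genes share the step between conditions A and AB of the gene they were picked for.

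A list of 109 Wnt pathway genes was drawn up with earlier results of these data known, and 20 of them, the chosen 2 included, could be matched to a gene ID. The symbols come from tables sorted by the knockdown result, so the matched genes lean towards those that changed and do not stand for the pathway. FZD4, LRP5, LRP6, TSPAN12, LGR4 and WNT5A were not analysed here. Of the other 18 genes, edgeR called 10 with TGFβ2 in shScramble cells, 6 higher and 4 lower, where 19.8% of all genes were called, and their median change was 0.10 log2 against -0.01 log2 for all genes. In shCreb5 cells it called 9 of 17, 5 higher and 4 lower, where 30.4% of all genes were called, with a median of 0.37 log2. With shCreb5 it called 0 of 18 in condition A and 0 of 17 in condition AB, and DESeq2 called 1 (CCN2, adjusted p = 0.0359) and 0. CCN2, listed as a YAP/TAZ target gene, was at -0.69 log2 in condition A, lower in 4 of 4 calves. In condition AB it was at -0.39 log2, lower in 3 of 4. Of the 18 and 17 genes, 8 and 10 had an unadjusted p under 0.05, against 1144 of 12922 and 1078 of 12664 over all genes. Since the symbols come from tables sorted by this knockdown, nothing is read from that.

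Of the secreted antagonists beside WIF1, SFRP4 rose with TGFβ2 and SFRP2 fell. SFRP4 rose by 1.85 log2 in shScramble cells (standard error 0.32, edgeR adjusted p = 0.00631) and by 1.76 log2 in shCreb5 cells (0.30, adjusted p = 0.00484), in 4 of 4 calves each. In calf 2 with shScramble this rests on 11 counts in both libraries, where only the scaling factor sets AB above A. The group means of SFRP4 were low, 1.58 and 6.23 CPM in shScramble A and AB and 0.589 and 2.16 CPM in shCreb5 A and AB. With at least 10 counts asked of every library SFRP4 was not tested in shCreb5 cells, where its lowest library had 6 counts. SFRP2 changed by -1.31 log2 in shScramble cells (standard error 0.34, edgeR adjusted p = 0.0294, lower in 4 of 4 calves). It was no longer called without calf 3 (adjusted p = 0.0868) or calf 4 (0.0512), and was -0.80 log2 without calf 1, whose shScramble A library held 177 CPM. In shCreb5 cells its change of -0.81 log2 was not called (edgeR adjusted p = 0.0588, lower in 4 of 4 calves), though DESeq2 called it (adjusted p = 0.0226), and without calf 1 it was -0.39 log2. With shCreb5 in condition A, SFRP4 changed by -1.42 log2, lower in 4 of 4 calves and not called (edgeR adjusted p = 0.485). With shCreb5 in condition AB it changed by -1.48 log2, lower in 3 of 4 calves and not called (edgeR adjusted p = 0.584).

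Among genes of ligand release and reception, the Wnt transporter WLS fell with TGFβ2 and both ROR co-receptors rose, in 4 of 4 calves each. WLS changed by -0.50 log2 in shScramble cells (edgeR adjusted p = 0.0146; 0.0514 without calf 2) and by -0.43 log2 in shCreb5 cells (adjusted p = 0.00575). ROR1 rose by 1.64 log2 (edgeR adjusted p = 0.00126) and 1.37 log2 (adjusted p = 0.00137). ROR2 rose by 0.56 log2 (edgeR adjusted p = 0.0273) and 0.59 log2 (adjusted p = 0.00762), and its call in shScramble cells was lost without calf 1, 2 or 3 (adjusted p = 0.0505, 0.0578 and 0.0774).

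Among feedback and target genes and nuclear factors, NKD1, a feedback inhibitor, rose by 2.29 log2 in shScramble cells (edgeR adjusted p = 0.000721). In shCreb5 cells it rose by 2.28 log2 (edgeR adjusted p = 0.00146), and both rises were seen in 4 of 4 calves. AXIN2, another feedback gene, named here with its values seen, was not called, with 0.02 log2 (edgeR adjusted p = 0.955) and 0.37 log2 (adjusted p = 0.28). The corepressor TLE1 changed by -0.78 log2 (edgeR adjusted p = 0.00499) and -0.71 log2 (adjusted p = 0.0127), lower in 4 of 4 calves each, and its call in shCreb5 cells was lost without calf 1, 3 or 4 (adjusted p = 0.0574, 0.0538 and 0.0649). TNFRSF19 changed by -0.66 log2 (edgeR adjusted p = 0.013; 0.0547 without calf 3) and -1.02 log2 (adjusted p = 0.000657), also lower in 4 of 4 calves.

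The remaining calls passed in 1 kind of cell, with no call on the difference between the kinds, and these genes are named with their values seen. VANGL1 rose by 0.69 log2 (edgeR adjusted p = 0.0446, 4 of 4 calves) and TCF7 by 0.95 log2 (adjusted p = 0.0299, 3 of 4 calves) in shScramble cells, and DESeq2 did not call VANGL1 (adjusted p = 0.0533). In shCreb5 cells they were at 0.44 and 0.62 log2, each higher in 3 of 4 calves (edgeR adjusted p = 0.146 and 0.15), and TCF7 was called there without calf 2 (1.03 log2, adjusted p = 0.00556). TCF7L2 changed by -0.44 log2 (edgeR adjusted p = 0.0341) and CCND1 by 0.58 log2 (adjusted p = 0.0482) in shCreb5 cells, in 4 of 4 calves each. In shScramble cells they were at -0.09 and 0.37 log2 (edgeR adjusted p = 0.586 and 0.216), lower in 2 and higher in 3 of 4 calves. Each of the 4 calls was lost on leaving out any 1 of 2 or 3 of the calves, and CCND1 came to 0.34 log2 without calf 1 and was not called with all 16 libraries in 1 fit (adjusted p = 0.212).

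**Figure D5:**
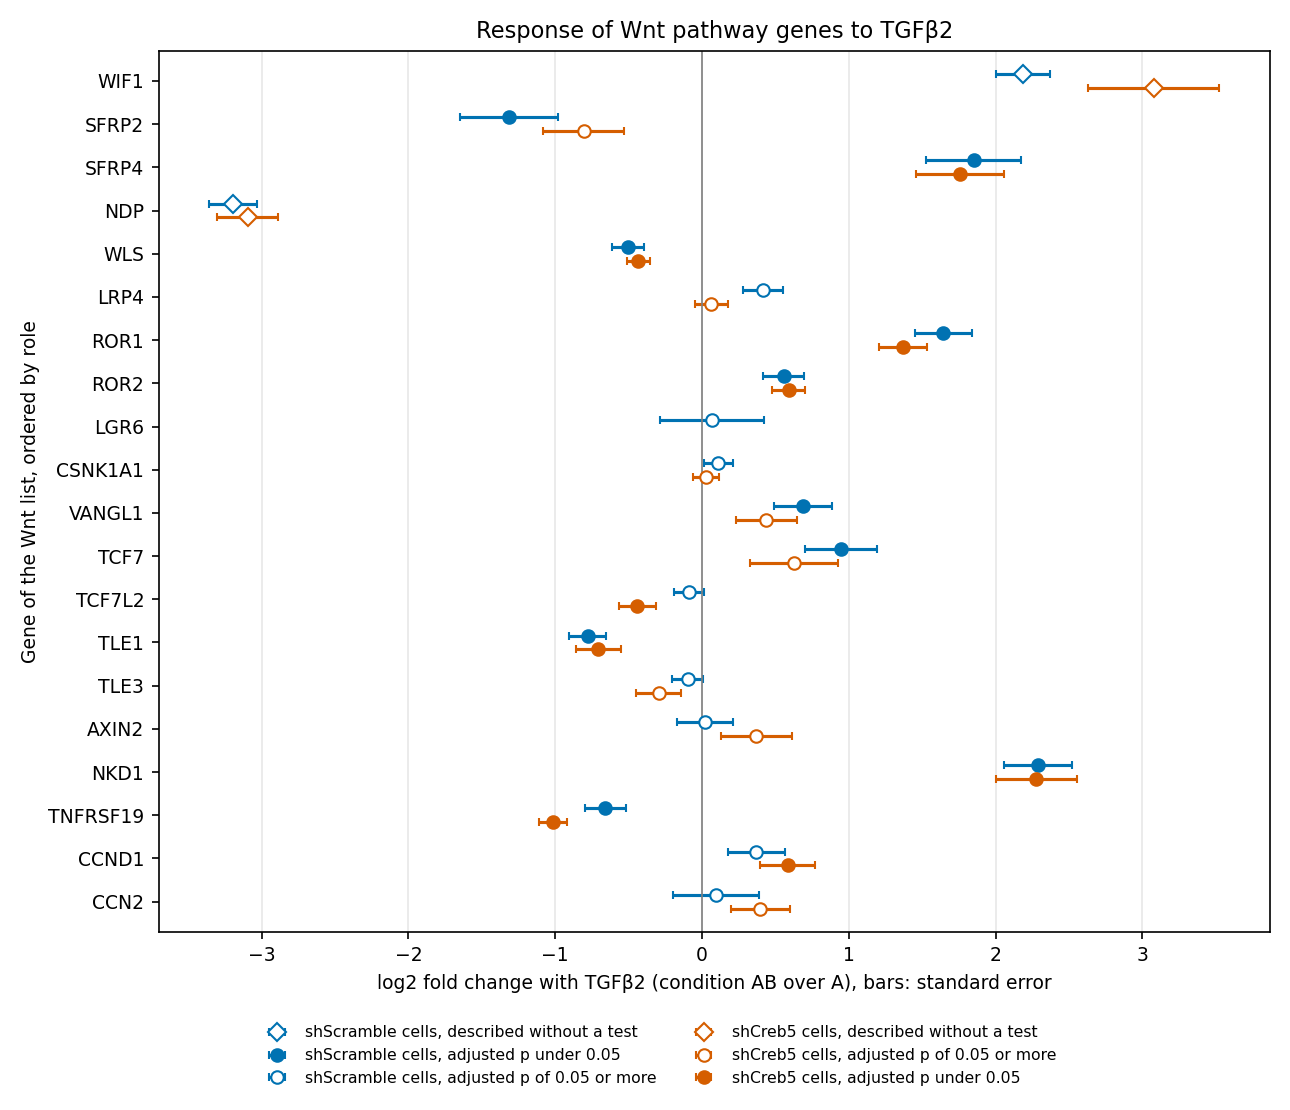
Log2 fold change with TGFβ2, with standard errors, of the matched Wnt pathway genes in shScramble and shCreb5 cells, ordered by role. Filled marks have an edgeR adjusted p under 0.05, open circles do not, and the diamonds of WIF1 and NDP carry no test.

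These are bulk libraries, in which fewer cells of a type and less RNA per cell cannot be told apart. Of the cell type markers, 2 of 8 for chondrocytes, 2 of 5 for fibroblasts, 2 of 6 for endothelium and 2 of 5 for macrophages could be matched, and none was at 0 in any library. For the superficial zone 2 of 2, PRG4 and CREB5, were matched, and neither was at 0. Smooth muscle, bone and adipocyte markers were not analysed here. Alongside the changes with TGFβ2 in shScramble cells, the fibroblast markers summed to 4139 CPM in A and 9284 CPM in AB, mostly COL3A1, which rose by 1.18 log2 (edgeR adjusted p = 0.00356, 4 of 4 calves), and THY1 rose by 1.43 log2 (adjusted p = 0.00033, 4 of 4 calves). The endothelial markers summed to 12.0 and 9.64 CPM, with VWF falling (-0.89 log2, edgeR adjusted p = 0.00773, 4 of 4 calves) and TEK not called (0.32 log2, adjusted p = 0.269, higher in 3 of 4 calves). The macrophage markers summed to 28.6 and 26.1 CPM, with CD68 falling (-0.90 log2, edgeR adjusted p = 0.0194, 4 of 4 calves) and CD14 not called (0.07 log2, adjusted p = 0.836, higher in 3 of 4 calves). The chondrocyte markers, HAPLN1 and COL11A1, summed to 8124 and 8765 CPM, and neither was called (-0.09 and 0.47 log2).

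In shCreb5 cells COL11A1 rose with TGFβ2 by 1.11 log2 (edgeR adjusted p = 0.0101, 4 of 4 calves), while HAPLN1 was not called (0.45 log2, adjusted p = 0.0713, higher in 3 of 4 calves). COL3A1 (1.17 log2), THY1 (1.08 log2), VWF (-1.60 log2) and CD68 (-1.80 log2) were called there too, each with the same direction in 4 of 4 calves (edgeR adjusted p = 0.000823, 0.00118, 0.00201 and 0.00423). TEK and CD14 were not called (0.51 and -0.38 log2). With shCreb5 in condition A edgeR called no marker, and HAPLN1 and COL11A1 were at -0.34 and -0.29 log2. PRG4 was at -0.63 log2, lower in 4 of 4 calves (edgeR adjusted p = 0.502), and DESeq2 called it (adjusted p = 8.76e-07). The superficial zone markers, PRG4 and the shRNA target CREB5, summed to 7725 CPM with shCreb5 against 11434 CPM. Mostly this was PRG4, at 7660 and 11340 CPM, so the sum is no separate measure of cell type. THY1 (1.08 log2), CD68 (0.86 log2) and VWF (0.72 log2) were each higher in 4 of 4 calves (edgeR adjusted p = 0.509, 0.519 and 0.509). TEK was lower in 4 of 4 (-0.40 log2, edgeR adjusted p = 0.57). The partners of THY1 and CD68 were at -0.27 log2 (COL3A1) and 0.08 log2 (CD14), and the fibroblast markers summed to 3505 CPM with shCreb5 against 4139 CPM. In condition AB edgeR called no marker either: THY1 was at 0.72 and COL3A1 at -0.28 log2, VWF at -0.01 and TEK at -0.20 log2, CD68 at 0.01 log2, and HAPLN1 at 0.20 and COL11A1 at 0.34 log2. PRG4 was at -0.65 log2, lower in 3 of 4 calves (edgeR adjusted p = 0.584), and DESeq2 did not call it (adjusted p = 0.302). CD14 was at -0.38 log2 there, lower in 4 of 4 calves (edgeR adjusted p = 0.584), and COL11A1 was higher in 4 of 4 (adjusted p = 0.599). The chondrocyte markers differed by calf: HAPLN1 was at 1261, 7555, 2252 and 2650 CPM in the shScramble A libraries of calves 1 to 4, highest in calf 2, the calf lowest in NDP. The part of these markers in the results of WIF1 and NDP was not tested.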

How the data were processed

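The authors ran bcbio-nextgen with Salmon and tximport against UMD3.1, with STAR for quality control only, on single-end NextSeq reads of KAPA mRNA HyperPrep libraries. They deposited estimated counts per gene as whole numbers, unscaled, and these were used as given. Library totals ran from 14710867 to 21853634 (median 19721435). No column lacked a sample, and no 2 libraries of a group were copies of each other (24 pairs of different calves, chi-square over degrees of freedom 74.0 to 361). Libraries of the same calf were not compared in this way.

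Each comparison was fitted with the edgeR 4.0.16 quasi-likelihood test (filterByExpr, TMM, calf as block, Benjamini-Hochberg), in R 4.3.3 with limma 3.58.1 for helper functions, and called at an adjusted p under 0.05. The standard error is the absolute log2 fold change over the square root of F. CPM used TMM factors over all 16 libraries, log2 CPM a prior count of 2, and CPM is not divided by gene length, so levels of different genes are not compared. Calf labels were checked over 13372 genes, after group means were removed. Libraries of the same calf had a median correlation of 0.67 (range 0.132 to 0.837), those of different calves -0.234 (range -0.516 to 0.204). The ranges overlapped, so the labels were not separated pair by pair. The code was tested on simulated data with known changes.

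WIF1, NDP and the gene lists were chosen with earlier results of these data known. Of each role of the Wnt list up to 3 genes higher and 3 lower are named, by fold change in shScramble cells, among those called in a TGFβ2 comparison with the same direction in all calves for both shRNAs. AXIN2, VANGL1, TCF7, TCF7L2 and CCND1 were added after their values were seen. Symbols come from tables of the same series and cover a minority of genes. Alternatives tried were DESeq2 1.42.0, its size factors within edgeR, unscaled totals for CPM, no filter, 10 counts in every library, 1 fit of all 16 libraries, no block, and each calf left out.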

Additional observations from a re-analysis of the deposited data

Results flagged for a closer look

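Sets of 4 values, 1 from each calf, were looked at for WIF1, NDP, CREB5, PRG4, the Wnt genes named above other than AXIN2 and CCN2, and the library totals. Of 148 such sets, each within a group or a comparison, 9 had 1 calf far from the rest, where chance alone gives about 1 in 20, or 7.4. In log2 CPM, calf 2 was low for SFRP4 in shScramble AB (-0.56, next value 2.81). Calf 2 was low in shCreb5 AB for SFRP2 (2.97, next 4.29) and for ROR1 (4.003, next 5.34). In the log2 change with TGFβ2 in shCreb5 cells, SFRP4 was high in calf 4 (2.20, next 1.33), SFRP2 was low in calf 1 (-1.996, next -0.42) and TLE1 was high in calf 2 (-0.0506, next -0.84). In the log2 change with shCreb5 in condition AB, calf 3 was low for TLE1 (-0.37, next -0.21) and for NKD1 (-1.03, next -0.45). In the difference of the shCreb5 effect between conditions, WLS was high in calf 4 (0.47, next -0.03).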

How the results depend on the processing

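Of 94 values of WIF1 and NDP under other choices none moved by more than the SD over calves, a wide measure (1.47 log2 for WIF1 in condition A). It did not mark the NDP change with shCreb5 coming down from 0.47 and 0.52 to 0.22 log2, nor the NDP difference between conditions turning from 0.09 to -0.18 log2 without calf 1. No direction turned among CREB5, PRG4 and the 12 named Wnt genes with such a value. Other methods changed the number of genes called. In the knockdown, edgeR called 0 in condition A where DESeq2 called 79, and 0 in condition AB where DESeq2 called 55, no filter gave 17 and 1 fit of all 16 libraries 6. Of the Wnt list DESeq2 called 1 in condition A, and in the difference between conditions DESeq2 called 10 genes. Without the calf as block, 202 genes were called with TGFβ2 in shScramble cells, 1 of them on the Wnt list (NKD1), and 194 in shCreb5 cells, 0 on the list. The cause was not tested. With 1 calf left out, 0 to 1 genes were called in condition A, 0 to 2 in condition AB, 1366 to 1926 with TGFβ2 in shScramble cells (6 to 8 on the Wnt list) and 1962 to 3829 in shCreb5 cells (6 to 11). Under 10 counts in every library NDP dropped out of the comparisons with condition AB libraries, for the counts of calf 2.

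There were 4 calves per group and 1 shRNA label against Creb5. WIF1 and NDP were selected on these libraries, so their values are no independent evidence. NDP rests on 4 to 86 counts in condition AB. Only 20 of 109 Wnt genes were matched, and norrin receptors were not analysed here. Protein was not measured. RNA quality and sequencing kit are not assigned to single libraries and were not used.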
